A study of Mus musculus with 8 samples.

Results

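The Kcn genes encode the pore-forming and auxiliary subunits of potassium channels. They were taken as the protein-coding genes of the mouse annotation whose symbols start with Kcn, with antisense and other noncoding transcripts left out, and a gene was kept when it had 40 or more counts in total over the 8 brains. Of 94 such genes, 82 were kept, among 19809 genes of any kind that reached the same minimum and 54752 that were listed. RNA-seq was performed on fetal brains of wild type C57BL/6 mice at embryonic stage E15.5, with 1 library per brain. In the stress group (4 brains) the pregnant female had been exposed to chronic unpredictable mild stress (CUMS) until the day before collection, and in the control group (4 brains) it had not. The control brains were F36, F37 (females), M30 and M31 (males), and the stress brains were F34, F35 (females), M28 and M29 (males). Each group came from 1 litter, so the litter and the stress cannot be told apart, and the p-values below measure the spread between littermates.

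Potassium channels let potassium leave the cell and thereby hold the resting potential and end the action potential. Voltage-gated Kv channels open on depolarization and are tuned by silent subunits and by auxiliary Kv beta, KChIP and KCNE proteins. Calcium- or sodium-activated channels respond to ions that enter during firing, inwardly rectifying Kir channels pass current best near rest, and K2P channels carry a background leak. Neurons acquire most of these currents step by step as they mature, and other members serve vessels, glia and epithelia.

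Library totals ranged from 25320109 to 29105710 counts, and between 0.166% and 0.187% of each total fell on the 82 Kcn genes. Mitochondrial genes took between 2.095% and 2.31% of the counts. Levels are given as CPM, the counts of a gene relative to the library total after TMM scaling, and differences as log2 fold change (Log2FC, stress vs. control) with its standard error (SE). The p-values are from edgeR's quasi-likelihood test with sex in the model, adjusted by Benjamini-Hochberg over all 19809 genes and genes under 0.05 are those named as called. Per-brain values below follow the order F36, F37, M30 and M31 for control and F34, F35, M28 and M29 for stress. In whole brain RNA, fewer cells of a type and less RNA per cell cannot be told apart.

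More Kcn genes were lower than higher in the stressed brains. Of the 82 genes, 16 (19.51%) were called lower, 1 (1.22%, Kcng1) was called higher and 65 were not called. Over all genes tested, 6.41% were called lower and 5.49% higher. The Log2FC was below 0 in 56 of the 82 Kcn genes (68.29%), against 49.4% of all genes, and the median was -0.07 for the Kcn genes and 0.002 for all genes. All 4 stress brains lay below all 4 control brains in 16 Kcn genes (19.51%, against 7.71% of all genes), and above them in 1 (1.22%, against 7.46%). At an unadjusted p under 0.05, 28 Kcn genes were lower, where the share over all genes was 12.7%, and 2 were higher, where it was 12.2%. DESeq2 called 10 of the 16 lower genes, did not call Kcng1 and called no other Kcn gene. The 6 lower genes it did not call were Kcna4, Kcna6, Kcnab1, Kcnc1, Kcnk1 and Kcnk2. Most changes were mild, with 4 Kcn genes beyond a Log2FC of 0.5 in either direction and a median size of 0.23 among the 17 called.

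**Figure D1:**
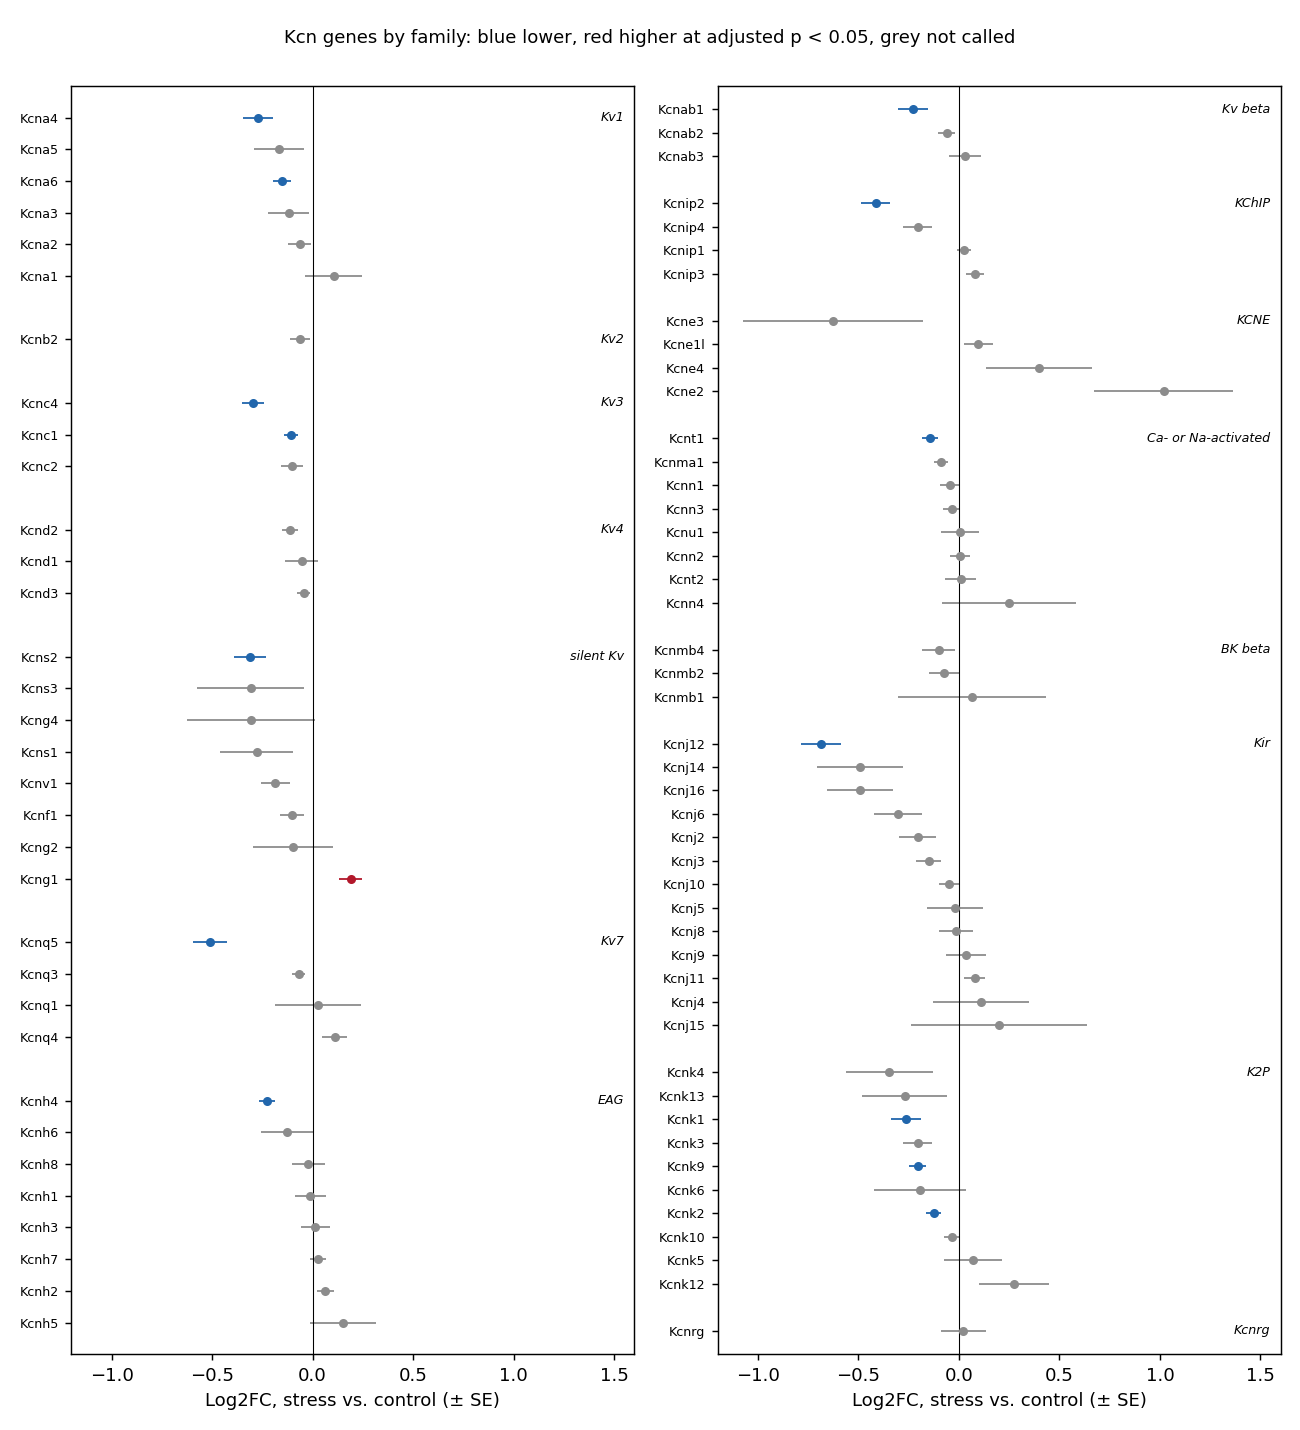
Log2FC (stress vs. control, ± SE) of 79 of the 82 Kcn genes, grouped by channel family, with the called lower genes in blue, the called higher gene in red and the others in grey. The 14 blue points run from -0.69 (Kcnj12) to -0.11 (Kcnc1), the red point is Kcng1 at 0.19, and the widest error bars belong to genes with few counts such as Kcne3 and Kcnj15.

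Summed over the 82 genes, the level was 1843, 1841, 1796 and 1870 CPM in the control brains and 1781, 1763, 1718 and 1666 CPM in the stress brains. The sum was thus lower in each stress brain than in each control brain, by 5.74% between the means (1838 ± 30.7 and 1732 ± 51.6, SD, n = 4 each). Without the 5 most abundant Kcn genes the fall was 6.19%. The Kv3 genes together fell most among the families of more than 1 gene (sum lower by 10.1%), followed by the K2P genes (8.59%) and the Kv1 genes (8.14%), and the KCNE genes were the family of more than 1 gene with a higher sum (9.21%). These sums carry no test.

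Per kilobase of exon (FPKM, computed from CPM and exon length), the E15.5 control brain held several neuronal Kv genes among its most abundant Kcn transcripts. Kcnd2 and Kcnd3, pores of the A-type Kv4 channels, were at 14.3 and 10.1 FPKM. Kcnd3, Kcnk2 (10.1 FPKM) and Kcnh4 (10.1 FPKM) did not differ beyond their spread (SD 0.309, 0.133 and 0.734 FPKM). Kcnc1 (8.43 FPKM), Kcnip1 (8.23 FPKM), Kcnq3 (7.93 FPKM), Kcnip3 (7.53 FPKM) and Kcnh2 (6.93 FPKM) were also among the first 10. Kcnq3 is a subunit of the M-type channels that restrain repetitive firing. The median over the 82 genes was 2.33 FPKM, 5 genes were above 10 FPKM and 24 were under 1 FPKM. Of the first 10, Kcnk2, Kcnh4 and Kcnc1 were called lower and none was called higher.

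**Figure D2:**
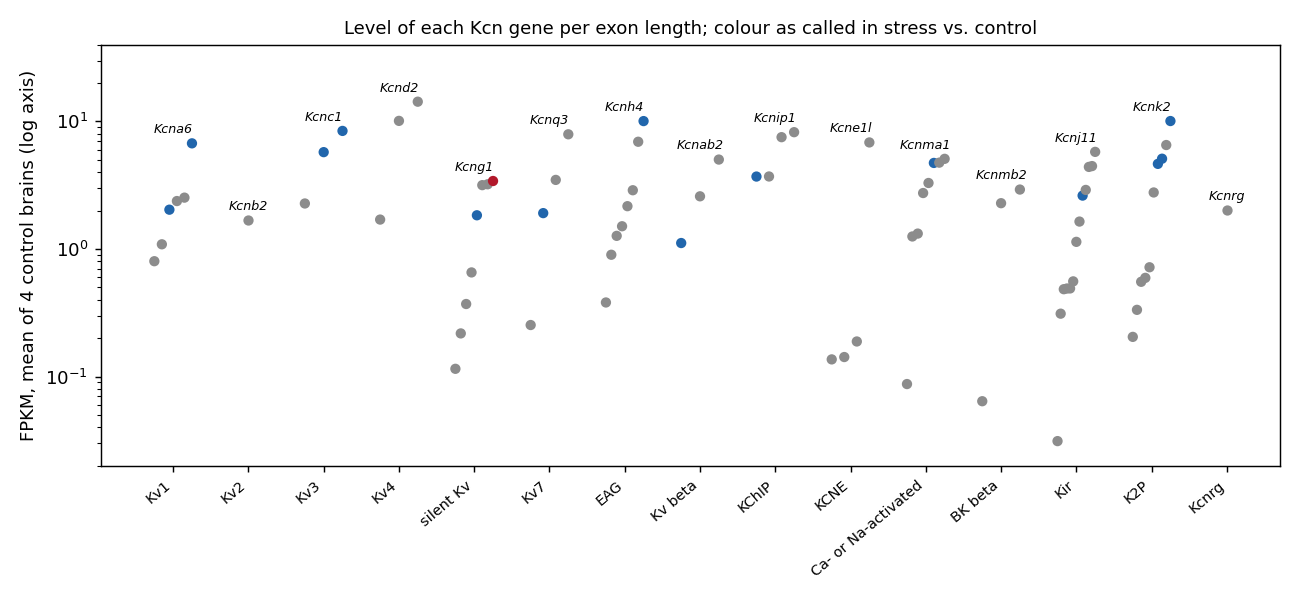
Mean FPKM in the 4 control brains (log axis) of 79 of the 82 Kcn genes, by family, with the most abundant gene drawn of each family named and colours as called in stress vs. control (blue lower, red higher, grey not called). The called genes lie between 1.11 FPKM (Kcnab1) and 10.1 FPKM (Kcnk2 and Kcnh4), and none of the genes under 1 FPKM was called.

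Called genes were found in 11 of the 14 families of more than 1 gene. Over all genes tested 11.9% were called in either direction, and how many families that share would reach was not computed. The strongest fall was that of an inward rectifier. Kcnj12 (chr11:61022564-61071131, + strand, mm10) encodes Kir2.2, a strong inward rectifier that helps hold neurons at rest. It was at 8.34, 7.05, 6.28 and 7.17 CPM in the control brains and at 5.14, 3.95, 4.56 and 4.21 CPM in the stress brains. The groups did not overlap, and the mean fell by 38.0% (Log2FC = -0.69, SE 0.10, adjusted p = 4.31e-05). It rested on 100 to 229 counts per brain. Of the 13 Kir genes tested it was the one called (6.41% of all genes were called lower), with a family median of -0.05. Kcnj6, the GIRK2 subunit of G protein-gated channels, also did not overlap between the groups (3.549 to 4.10 CPM in control, 2.72 to 3.548 CPM in stress), at an adjusted p of 0.0975, and was singled out after its values were seen. Kcnj11, the pore of the neuronal ATP-sensitive channel and the most abundant Kir gene per length (5.77 FPKM), was at 21.2 ± 1.02 CPM in control and 22.4 ± 0.956 CPM in stress (SD, n = 4; adjusted p = 0.373).

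Among the Kv7 (M-type) genes, Kcnq5 fell while the more abundant Kcnq3 did not pass the test. Kcnq5 (chr1:21398403-21961942, - strand) was at 14.9, 16.8, 11.2 and 15.9 CPM in the control brains and at 11.8, 11.1, 9.92 and 8.49 CPM in the stress brains. The groups overlapped, since the control male M30 lay below the stress female F34, but within each sex both stress brains were below both control brains. Its Log2FC was -0.51 (SE 0.08, adjusted p = 0.000176). It lay outside the naming rule because of the overlap and was singled out after its values were seen. Kcnq3 was at 120, 113, 115 and 119 CPM in control and at 114, 114, 112 and 105 CPM in stress, a Log2FC of -0.07 with an SE of 0.03 (adjusted p = 0.174). Whether Kcnq5 fell more than Kcnq3 was not tested.

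The third largest fall in Log2FC among the called genes was in an auxiliary subunit. Kcnip2 (chr19:45791839-45816061, - strand) encodes KChIP2, a calcium-binding protein that brings Kv4 pores to the membrane and tunes their inactivation. It was at 13.5, 13.7, 11.3 and 12.8 CPM in the control brains and at 9.05, 10.9, 9.40 and 9.28 CPM in the stress brains. No stress brain reached the lowest control brain, and the mean fell by 24.9% (Log2FC = -0.41, SE 0.07, adjusted p = 0.000269). The other KChIP genes were not called. Kcnip4 was at 13.4 ± 1.45 and 11.7 ± 0.401 CPM (SD, n = 4, adjusted p = 0.0631), Kcnip1 at 51.1 ± 0.459 and 51.9 ± 0.589 CPM, and Kcnip3 at 26.7 ± 1.44 and 28.2 ± 0.931 CPM. None of the 3 Kv4 pores that KChIPs bind was called, with Kcnd2 at a Log2FC of -0.11 (SE 0.04, adjusted p = 0.0754) and Kcnd3 at -0.04 (SE 0.03, adjusted p = 0.458). The call of Kcnd2 turned on the setting, as it was lower without a count filter (adjusted p = 0.0216), in males alone (0.00831), without control F36 (0.0429) and without stress F35 (0.00326).

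**Figure D3:**
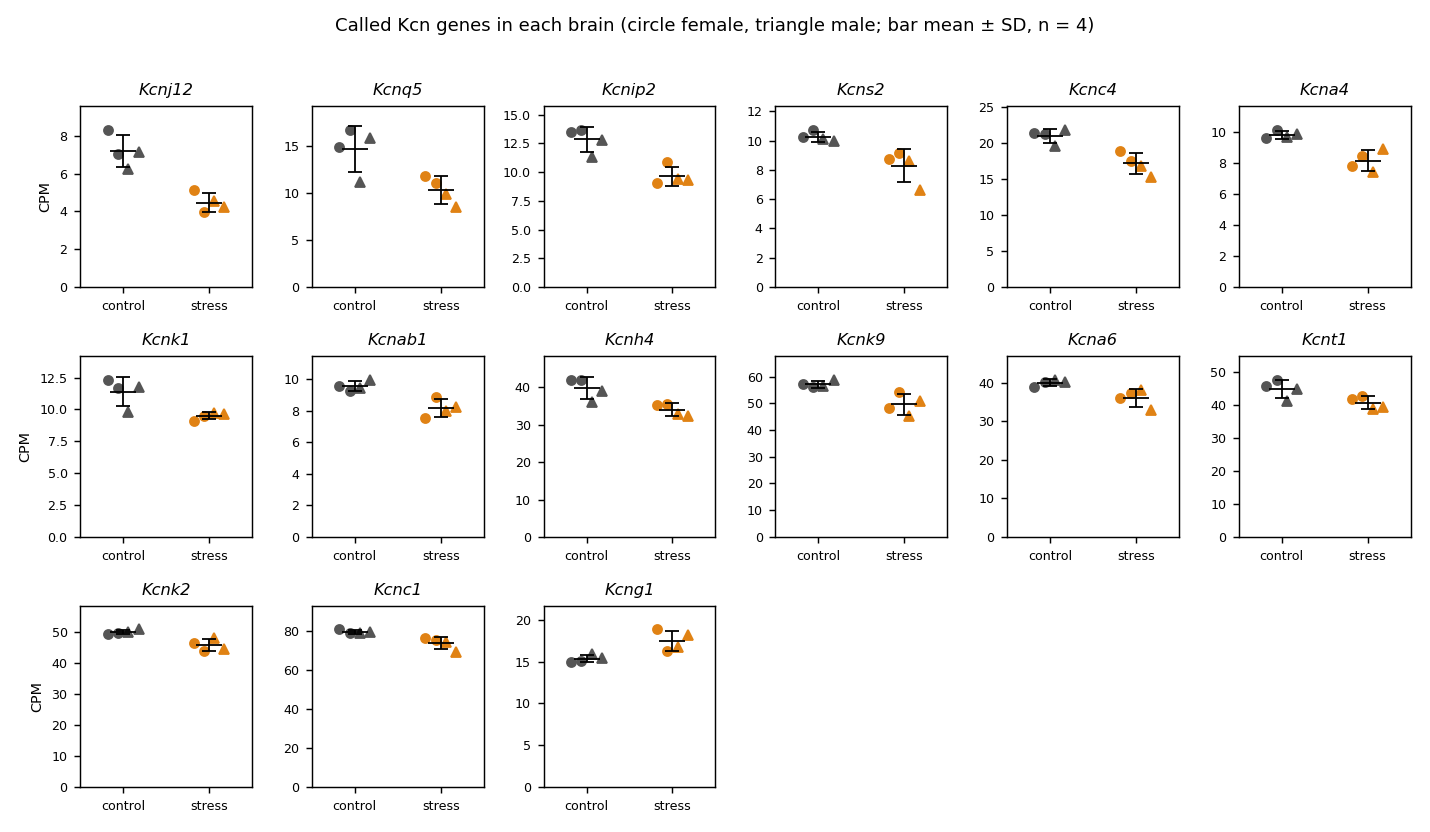
CPM in each of the 8 brains for 15 of the 17 called Kcn genes (grey control, orange stress; circles females, triangles males; bars mean ± SD, n = 4; axes start at 0). In 12 of the 14 lower genes drawn no stress brain reaches the lowest control brain, the exceptions being Kcnq5 and Kcnt1, and in Kcng1 every stress brain lies above every control brain.

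Genes of the Kv3 family were also lower. Kv3 channels open at strongly depolarized voltages and close fast, which lets neurons fire at high rates once mature. Kcnc4 (Kv3.4, a fast inactivating member) was at 21.4, 21.3, 19.7 and 21.9 CPM in control and at 19.0, 17.6, 16.8 and 15.4 CPM in stress (Log2FC = -0.30, SE 0.06, adjusted p = 0.000717). Kcnc1 (Kv3.1), the most abundant of the family per length, was at 80.9, 79.2, 78.9 and 79.7 CPM in control and at 76.8, 75.4, 74.3 and 69.2 CPM in stress (Log2FC = -0.11, SE 0.03, adjusted p = 0.0285). Kcnc2 (Kv3.2), singled out after its values were seen, was at 16.2 ± 0.393 CPM in control and 15.1 ± 0.443 CPM in stress (SD, n = 4, adjusted p = 0.260). In these 3 genes, of which Kcnc2 was not called, every stress brain lay below every control brain (7.71% of all genes did so).

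In the Kv1 and silent Kv families 4 genes were called. They were 2 of 6 Kv1 genes, both lower, and 2 of 8 silent Kv genes, 1 lower and 1 higher. Over all genes 6.41% were called lower and 5.49% higher. Kcna4 (Kv1.4), a pore of A-type currents that inactivate quickly, was at 9.61, 10.2, 9.65 and 9.87 CPM in control and at 7.79, 8.45, 7.42 and 8.91 CPM in stress (Log2FC = -0.27, SE 0.08, adjusted p = 0.0169). Kcna6 (Kv1.6), the most abundant Kv1 gene per length (6.73 FPKM), was at 38.8, 40.2, 40.8 and 40.2 CPM in control and at 35.95, 37.3, 38.2 and 32.8 CPM in stress (Log2FC = -0.15, SE 0.05, adjusted p = 0.0255). Of the exon bases of Kcna6, 39.6% are shared with another annotated gene, so the 2 genes' reads may not be fully told apart. The other 4 Kv1 genes tested were not called, among them Kcna1 and Kcna2, the main Kv1 pores of adult axons, at a Log2FC of 0.10 (SE 0.14) and -0.06 (SE 0.06).

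Silent subunits form no channel alone and alter the Kv2 channels they join, and this family held the one rise. Kcns2 (Kv9.2) was at 10.3, 10.8, 10.1 and 9.94 CPM in control and at 8.76, 9.12, 8.60 and 6.63 CPM in stress (Log2FC = -0.31, SE 0.08, adjusted p = 0.00882). Kcng1 (Kv6.1) was at 15.0, 15.1, 16.0 and 15.4 CPM in control and at 18.9, 16.3, 16.8 and 18.2 CPM in stress (Log2FC = 0.19, SE 0.06, adjusted p = 0.0317). The groups of both genes did not overlap, and the 2 genes moved in opposite directions. Of the 8 silent Kv genes tested, 7 had a Log2FC below 0 (49.4% of all genes did) and the median was -0.23.

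The other auxiliary subunits included 1 called gene (11.9% of all genes were called in either direction). Kcnab1, a Kv beta subunit that gives Kv1 channels fast inactivation, was at 9.57, 9.27, 9.43 and 9.98 CPM in control and at 7.57, 8.88, 8.01 and 8.21 CPM in stress (Log2FC = -0.23, SE 0.07, adjusted p = 0.0422). The more abundant Kcnab2 (5.02 FPKM) was at 28.02 ± 0.711 and 26.8 ± 0.628 CPM (SD, n = 4, adjusted p = 0.400). No KCNE gene was called. Kcne1l, the most abundant of them per length (6.84 FPKM), was at 10.6 ± 0.354 CPM in control and 11.3 ± 1.11 CPM in stress (SD, n = 4, adjusted p = 0.452). Kcne2, a KCNE subunit of epithelia that was singled out after its values were seen, had the largest positive Log2FC of the 82 genes (1.02, SE 0.35, adjusted p = 0.0537). It was at 0.437, 0.247, 0.145 and 0.176 CPM in control and at 0.869, 0.632, 0.383 and 0.173 CPM in stress, with 4 to 24 counts per brain, and the groups overlapped. Markers of the choroid plexus, an epithelium, are given beside it. Ttr, which encodes transthyretin, was at 6.95, 0.564, 1.05 and 2.04 CPM in control and 29.9, 6.75, 5.01 and 0.656 CPM in stress. Ttr and Otx2 were called higher, and the other 5 of the 7 markers were not called, with a Log2FC from -0.37 (Kl) and -0.20 (Folr1) to 0.66 (Slc4a5). DESeq2 called Otx2 (adjusted p = 0.00591) but not Ttr (0.448). The summed level of the 7 ranged from 37.6 to 48.4 CPM in control and from 47.4 to 77.5 CPM in stress. Most of this sum was Otx2 (34.7 to 41.2 CPM in control, 41.3 to 44.1 CPM in stress). The 77.5 CPM was in F34, the brain with the highest Ttr. The part of these markers in the Kcne2 values was not tested.

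Of the 8 EAG and the 8 calcium- or sodium-activated channel genes, 1 each was called, both lower (6.41% of all genes were). Kcnh4, an Elk-type EAG gene of the brain, was at 42.0, 42.1, 35.98 and 39.0 CPM in control and at 35.3, 35.7, 32.8 and 32.3 CPM in stress (Log2FC = -0.23, SE 0.04, adjusted p = 0.000403). The groups did not overlap. The other 7 EAG genes were not called, including Kcnh2 (Erg1), at 33.6 ± 1.97 and 35.03 ± 1.09 CPM (SD, n = 4, adjusted p = 0.400). Kcnt1 (Slack), a sodium-activated channel gene singled out after its values were seen, was at 45.7, 47.8, 41.3 and 44.8 CPM in control and at 41.9, 42.8, 38.7 and 39.4 CPM in stress (Log2FC = -0.14, SE 0.04, adjusted p = 0.0151). Its groups overlapped across the sexes but not within either sex. Kcnma1, the BK channel pore, was at 86.4 ± 3.87 and 81.3 ± 3.93 CPM (SD, n = 4, adjusted p = 0.113). It was called lower in males alone (adjusted p = 0.0216) and without control F36 (0.0331). None of the 3 BK beta genes tested was called, with Kcnmb2 at a Log2FC of -0.07 (SE 0.08). Kcnn1, Kcnn2 and Kcnn3, the small-conductance calcium-activated genes of neurons, had a Log2FC between -0.045 and 0.005.

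Of the 10 K2P genes tested, 3 were called lower (6.41% of all genes were), none was called higher (5.49%) and the median Log2FC was -0.20. Kcnk9 (TASK-3), a leak channel closed by acid, was at 57.2, 56.1, 56.4 and 58.9 CPM in control and at 48.3, 54.3, 45.2 and 50.8 CPM in stress (Log2FC = -0.20, SE 0.04, adjusted p = 0.00195). Kcnk1 (TWIK-1) was at 12.3, 11.7, 9.79 and 11.8 CPM in control and at 9.09, 9.51, 9.71 and 9.63 CPM in stress (Log2FC = -0.26, SE 0.07, adjusted p = 0.0184). The lowest control brain of Kcnk1, M30, lay just above the highest stress brain, M28. Kcnk2 (TREK-1), a leak channel opened by stretch and lipids, was at 49.1, 49.5, 49.8 and 50.7 CPM in control and at 46.3, 43.6, 48.0 and 44.5 CPM in stress (Log2FC = -0.13, SE 0.04, adjusted p = 0.0276). Of the exon bases of Kcnk2, 12.2% are shared with another annotated gene. Kcnrg, which encodes a soluble protein that suppresses Kv channels, was at 3.70 ± 0.318 and 3.76 ± 0.384 CPM (SD, n = 4, adjusted p = 0.939).

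How firmly the calls stood differed between genes. Kcnj12, Kcnq5, Kcnip2, Kcnc4, Kcnh4 and Kcnk9 were called lower in all 8 fits that each left out 1 brain. Kcns2 was called in 7 and lost the call without stress M29 (adjusted p = 0.0738). Kcnt1 was called in 6 and lost without control F37 or M31 (highest adjusted p = 0.0717). Kcna4 was called in 5 (lost without F37, F34 or M28, highest adjusted p = 0.0818), Kcnk1 in 4 (lost without F36, F37, M31 or F34, highest 0.0806) and Kcnc1 in 4 (lost without F36, M30, M31 or M29, highest 0.165). Kcna6 was called in 3 (lost without F37, M30, M31, F34 or M29, highest 0.171), Kcnk2 in 2 (kept without F34 or M28, highest 0.125) and Kcnab1 in 1 (kept without F35, highest 0.138). Kcng1 was called higher in 3 (without M30, F35 or M28, highest adjusted p over the 8 fits = 0.159). Each of these genes kept its direction in all 8 fits. DESeq2 gave an adjusted p of 0.065 for Kcna4, 0.0631 for Kcna6, 0.15 for Kcnab1, 0.0624 for Kcnc1, 0.0595 for Kcnk1, 0.0709 for Kcnk2 and 0.106 for Kcng1.

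A few promoters are shown for called genes of different roles, to give the sequence context of their start sites. RefSeq promoter windows of 300 bases (250 before the start site and 50 after it, GRCm38.p6, the mm10 build) lay within 100 bases of the gene's annotated 5′ end for 41 of the 82 Kcn genes, 7 of them called lower. The windows of Kcnip2 (chr19:45816014-45816313, - strand), Kcnq5 (chr1:21961893-21962192, - strand) and Kcnc1 (chr7:46396218-46396517, + strand) read 5′ to 3′ along the gene as follows, with capitals at matches on either strand to the GC box (GGGCGG), the CCAAT box (CCAAT), the TATA box (TATAAA) or the right part of the RE1 element (GGACAGC).
Kcnip2: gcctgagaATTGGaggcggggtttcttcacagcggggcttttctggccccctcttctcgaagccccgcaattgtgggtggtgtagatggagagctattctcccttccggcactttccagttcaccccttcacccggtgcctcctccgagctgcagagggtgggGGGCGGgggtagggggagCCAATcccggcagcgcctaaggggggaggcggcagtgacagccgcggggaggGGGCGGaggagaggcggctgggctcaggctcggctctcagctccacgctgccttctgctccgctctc
Kcnq5: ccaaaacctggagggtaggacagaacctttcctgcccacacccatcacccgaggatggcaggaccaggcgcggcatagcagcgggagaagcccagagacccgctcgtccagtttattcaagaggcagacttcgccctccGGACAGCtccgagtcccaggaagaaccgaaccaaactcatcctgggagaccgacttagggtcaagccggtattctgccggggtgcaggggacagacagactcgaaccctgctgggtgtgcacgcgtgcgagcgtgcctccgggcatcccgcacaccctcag
Kcnc1: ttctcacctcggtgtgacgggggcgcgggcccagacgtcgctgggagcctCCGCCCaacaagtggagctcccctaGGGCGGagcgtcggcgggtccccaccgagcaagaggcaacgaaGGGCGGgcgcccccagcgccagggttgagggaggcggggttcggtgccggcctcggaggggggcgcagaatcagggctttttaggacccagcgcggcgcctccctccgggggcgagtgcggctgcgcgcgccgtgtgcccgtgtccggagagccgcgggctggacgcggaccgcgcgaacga
Kcnip2 held 2 GC boxes and 2 CCAAT boxes, Kcnq5 1 match to the RE1 right part and Kcnc1 3 GC boxes, and none of the 3 held the TATA letters. Their GC contents were 67.0%, 62.7% and 74.7%. Over the 41 Kcn windows the GC box was found in 53.7% (63.6% of the 8943 windows of all genes tested), the CCAAT box in 31.7% (39.9%) and TATAAA in 4.88% (7.44%). The RE1 right part was found in 9 Kcn windows, or 22% (7.76%), of which Kcnq5 and Kcnk1 belonged to called genes. The RE1 left part (TTCAGCACC) was found in 1, that of Kcnh6 (2.44%, against 0.503%). The letters TGACGTCA (CRE) were found in none of the 41 (3.34% of all) and CACGTG (E box) in 3 (7.32%, against 9.94%). None of the searched motifs lies within another. The median number of CpG was 10 in the Kcn windows and 20 in all windows. A match is a description of letters and not of binding.

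The genes that place, escort or resemble Kcn channels were read from the same fit. Of 22 listed, 20 were tested, 8 were called lower (6.41% of all genes were) and 1 higher (5.49%), with a median Log2FC of -0.09 against 0.002 over all genes. The Hcn genes encode the pacemaker cation channels related to Kv pores. Hcn2 was at 24.1, 23.5, 20.5 and 21.8 CPM in control and at 16.7, 18.04, 16.6 and 15.8 CPM in stress (Log2FC = -0.42, SE 0.05, adjusted p = 7.86e-06), without overlap. Hcn3 was also called lower (Log2FC = -0.17), and Hcn4 was not (-0.05). Of the exon bases of Hcn3, 17.1% are shared with another annotated gene. Cntnap1 (-0.42) and Sptbn4 (-0.23), of the axonal membrane scaffold at and beside nodes, and Lgi1 (-0.21), a secreted partner of Kv1 complexes, were called lower. Dpp10 (-0.14) and Dpp6 (-0.09), the transmembrane partners of Kv4 channels, were called lower too. Cntn2, an axonal adhesion molecule that clusters Kv1 channels, was the one called higher (0.11, SE 0.03, adjusted p = 0.0137), with groups that overlapped.

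Markers of the cell types in the sample moved as well. Over all genes tested, 6.41% were called lower and 5.49% higher. Of 12 neuron markers, 6 were called lower and none higher, with a median Log2FC of -0.08 and a lowest value of -0.13. Of these 6, DESeq2 did not call Snap25 (adjusted p = 0.374) or Nefm (0.0703). The summed level of the 12 markers ranged from 8432 to 8675 CPM in control and from 8189 to 8580 CPM in stress. Of 10 progenitor markers 6 were called higher (1836 to 1959 CPM summed in control, 1907 to 2076 CPM in stress), as were 6 of 8 neuroblast markers (448 to 482 and 491 to 540 CPM). Endothelial markers were lower in 4 of 7 (169 to 185 and 151 to 162 CPM) and oligodendrocyte lineage markers in 2 of 4 (104 to 115 and 90.9 to 97 CPM). None of 8 pericyte markers (172 to 187 and 176 to 187 CPM) and none of 6 microglia markers (27.8 to 31.2 and 26.8 to 30.3 CPM) was called. Of 7 choroid plexus markers 2 were higher (37.6 to 48.4 and 47.4 to 77.5 CPM, mostly Otx2). Erythroid markers were higher in 2 of 9 and lower in 1 (366 to 415 and 373 to 388 CPM). Meningeal markers were higher in 3 of 4 (7.68 to 17.1 and 10.5 to 38.7 CPM). These 3 (Col1a1, Col1a2 and Lum) overlapped between the groups and were each highest in stress M28. DESeq2 called none of the 3 (adjusted p = 0.301, 0.351 and 0.119). It also did not call Nes (0.227), Neurog1 (0.0772), Cldn5 (0.0883), Esam (0.0567) or Ttr (0.448). No marker was at 0 in every brain. The part of these cell types in the Kcn values was not tested.

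**Figure D4:**
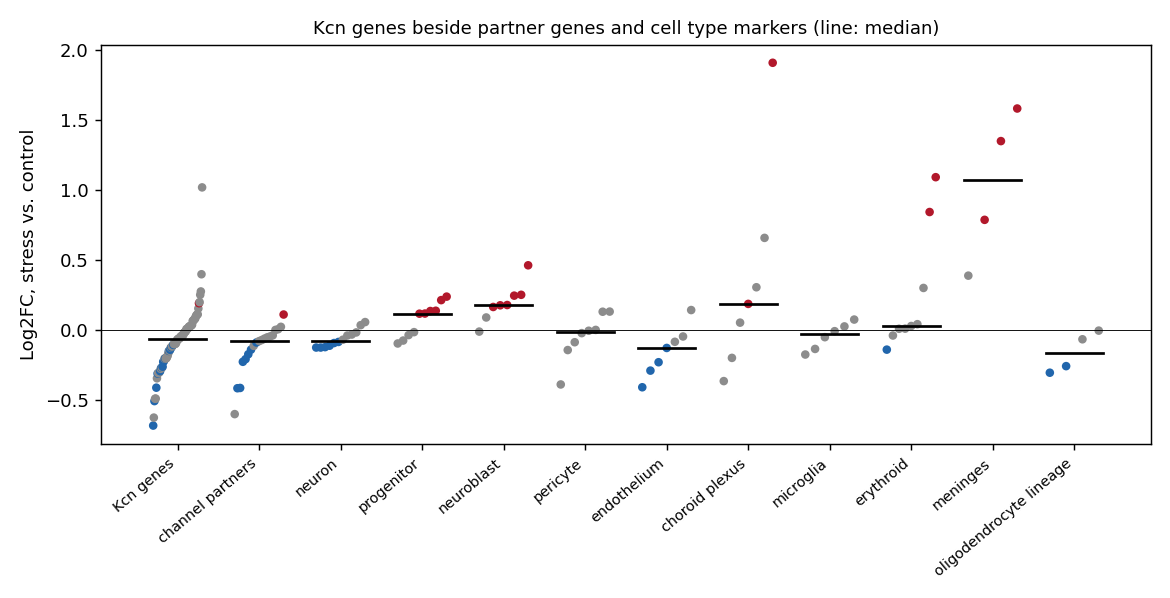
Log2FC (stress vs. control) of the same 79 Kcn genes, 19 of the 20 channel partners tested and 10 cell type marker lists, with called genes in blue (lower) or red (higher), others in grey, and a line at each median. The Kcn median is -0.07 and the neuron marker median -0.08. The Kcn genes range from -0.69 (Kcnj12) to 1.02 (Kcne2, not called, SE 0.35, 4 to 24 counts per brain). The 12 neuron markers, which have far more counts than Kcne2, range from -0.13 to 0.06.

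Both sexes were examined in the same way. The 16 lower Kcn genes, which were called over these same brains, all had a Log2FC below 0 in females and in males. Of the 82 genes, 47 had a Log2FC below 0 in both sexes, and the share of all genes that did so was not computed. Kcnj12 had a Log2FC of -0.75 (SE 0.14) in females and -0.62 (SE 0.14) in males, and Kcng1 0.23 and 0.15. The sex by stress interaction called none of the 82 genes in edgeR's quasi-likelihood test or in DESeq2, where 0.00505% of all genes were called by the former. At an unadjusted p under 0.05 it marked 6 (7.32%, against 6.33% of all genes), which were Kcnh8, Kcnq1, Kcnk10, Kcnj14, Kcnma1 and Kcnd2. In each of these 6, singled out after their values were seen, the Log2FC was lower in males than in females. In Kcnq1, Kcnh8 and Kcnk10 it was above 0 in females and below 0 in males (0.48 and -0.46, 0.17 and -0.20, 0.04 and -0.11). In Kcnj14, Kcnma1 and Kcnd2 it was below 0 in both sexes, for example -0.16 in males against -0.02 in females in Kcnma1 and -0.19 against -0.03 in Kcnd2.

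**Figure D5:**
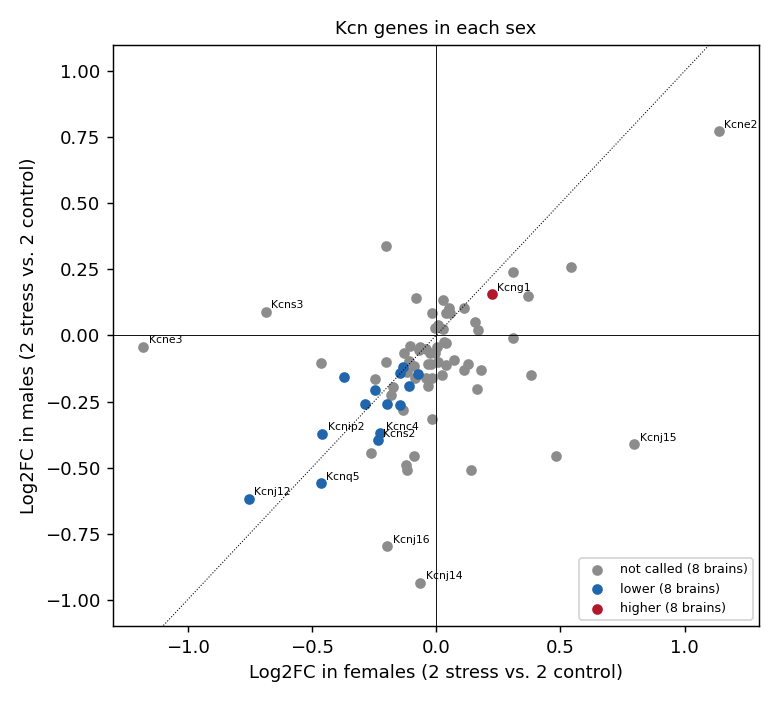
Log2FC of 79 of the 82 Kcn genes in females (x axis, 2 stress vs. 2 control) against males (y axis, 2 stress vs. 2 control), with colours as called over all 8 brains and a dotted line of equal values. All 14 blue points lie below 0 on both axes, Kcng1 lies above 0 on both, and Kcnj14 lies far from the line (-0.06 in females and -0.94 in males).

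The sexes were also compared over both groups. None of the 82 was called for sex by edgeR's quasi-likelihood test or by DESeq2 (edgeR called 0.0909% of all genes, 0.0606% lower and 0.0303% higher in males), and 8 had an unadjusted p under 0.05 (9.76%, against 5.79% of all genes). Kcne2, Kcnh4, Kcnq5, Kcnt1, Kcna3 and Kcnk3 were among those lower in males and Kcnj10, the Kir4.1 channel of glia, was higher. Of these, singled out after their values were seen, Kcnj10 was at 22.4 ± 1.37 CPM in females and 25.1 ± 1.22 CPM in males (SD, n = 4; adjusted p = 0.644). Without control M31, 1 Kcn gene was called for sex, Kcnq5, which was lower in males. The 2 X-linked members, Kcnd1 and Kcne1l, had a male vs. female Log2FC of 0.03 (SE 0.08) and -0.08 (SE 0.07).

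The 12 Kcn genes under the count minimum had between 1 and 29 counts over the 8 brains. They were Kcna10 (1), Kcna7 (2), Kcnk16 (5), Kcnj1, Kcnj13 and Kcnk18 (6 each), Kcnk15 (7), Kcnmb3 (8), Kcnk7 (14), Kcne1 (15), Kcnv2 (20) and Kcng3 (29), several of them best known from epithelia, retina, muscle or sensory ganglia. Just above the minimum stood Kcne3 (44), Kcnj15 (47) and Kcnmb1 (61). At this depth only large changes of such genes could have been called, the Log2FC of Kcne3 having an SE of 0.45.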

How the data were processed

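The members and gene lists were chosen with earlier results of these data known. The deposited values are raw counts per gene. The authors cleaned the paired reads, aligned them to mm10 with TopHat2 2.1.1 and counted them on exons with featureCounts 1.6.3, using the GENCODE vM20 annotation per the file headers. The counting gives no setting for strand or for reads with several places, so how reads on overlapping and antisense genes were treated is not stated. Symbols were matched by identifier to GENCODE vM21 (54723 of 54752).

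Genes with a total of 40 or more counts were scaled by TMM and entered edgeR's quasi-likelihood functions glmQLFit and glmQLFTest (edgeR 4.0.16, limma 3.58.1, R 4.3.3) with sex and condition, all 8 brains, adjusted by Benjamini-Hochberg over 19809 genes. The study's model used DESeq2 and held a batch term, which is not named for these 8 brains and was not used. FPKM is CPM per kilobase of annotated exon. SE was derived from the Log2FC and the F value. The code was tested on simulated data. Promoter windows are RefSeq's.

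The genes named were the called members without overlap (the 12 with the largest fall and up to 12 with the largest rise), the first 10 by control FPKM, the first of each family, members called for sex or interaction, and the called partner genes. Alternatives were DESeq2's Wald test (DESeq2 1.42.0), median-of-ratios or upper-quartile factors, filterByExpr or no filter, no sex term, each sex alone and leaving out each brain. Other animals of the study were not analysed here. Results for some genes are not reported here.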

Additional observations from a re-analysis of the deposited data

Results flagged for a closer look

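Within each group of 4 brains, the named Kcn genes were screened for a single brain far from the others, as a gap to the nearest brain divided by the range of the group. Of 56 groups (28 genes, 2 groups each), 3 held such a brain, and chance alone gives about 1 in 20. Kcnd3, a Kv4 pore, was lowest in stress M29, at 88.6 CPM against 95.2 to 96.4 CPM in the other stress brains (gap over range 0.842). Kcne1l was highest in stress F34, at 12.9 CPM against 10.5 to 10.9 CPM (0.863). Kcnj11, the pore of the neuronal ATP-sensitive channel, was lowest in stress F35, at 21.0 CPM against 22.7 to 22.95 CPM (0.874). None of the 3 genes was called between the groups.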

How the results depend on the processing

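The count of lower Kcn genes was 16 with median-of-ratios or upper-quartile factors, 17 with filterByExpr, 18 without a count filter, 14 without the sex term and 14 in males alone, but 10 with DESeq2 and 5 in females alone. Leaving out 1 brain gave 10 to 19, with 10 without control F37, control M31 or stress M29 and 19 without stress F35. The genes were not always the same. Of the main 16, 10 were among the 14 of males alone, 15 among the 18 without a count filter and 15 among the 19 without stress F35. The median Log2FC of the Kcn genes was -0.04 in females alone and -0.11 in males alone, and otherwise lay between -0.10 and -0.06, and the change in the share of counts on them stayed between -6.57% and -4.28%. The count of higher Kcn genes (1) was 2 with filterByExpr and 2 without a count filter, both adding Kcne2, 0 with DESeq2, 0 in females alone, 0 in males alone and 0 to 1 when a brain was left out. Without stress M29 the 1 was Kcne2 and not Kcng1. For the partner genes, 4 were lower in females alone (8 over all brains), and the 1 higher was 0 without the sex term, 0 in females alone, 0 in males alone and 0 to 1 with a brain left out. Of the marker genes, 13 were lower, against 9 with DESeq2, 6 in females alone, 7 in males alone and 7 to 13 with a brain left out (7 without stress F34, 8 without control F37). The higher marker genes numbered 19, against 13 with DESeq2 and 8 in females alone. The sex term called 0 to 1 Kcn genes with a brain left out (1 without control M31). Fits of 1 sex hold 4 brains, and the cause of the other shifts was not tested. Among the 28 named genes, Kcnrg changed sign, at -0.13 in males alone and between -0.051 and 0.095 with a brain left out (-0.026 without control F36, -0.051 without stress F35). No paired analysis was possible because the labels carry no number shared between the groups. With 1 litter a group, between 4 and 24 counts per brain in genes such as Kcne2, and no strand setting, small changes of rare or overlapping genes are the least certain.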

Other observations

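ATP-sensitive potassium channels join a Kir6 pore with a sulfonylurea receptor, and both pairs were measured. The vascular pair did not pass the test. Kcnj8, its pore, was at 7.17, 6.35, 8.31 and 7.77 CPM in the control brains and at 7.13, 7.50, 7.03 and 7.63 CPM in the stress brains (Log2FC = -0.01, SE 0.08, adjusted p = 0.948 in edgeR's quasi-likelihood test). Abcc9, its receptor, was at 22.1 ± 1.12 CPM in control and 22.1 ± 0.732 CPM in stress (SD, n = 4). Of the neuronal pair, Kcnj11 was at 21.2 ± 1.02 and 22.4 ± 0.956 CPM and its receptor Abcc8 was at 33.5 ± 1.904 and 30.9 ± 1.11 CPM (Log2FC = -0.12, SE 0.05, adjusted p = 0.108 in the same test). These genes were chosen after their values were seen.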
